A study of Mus musculus with 96 samples.

Results

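VIP interneurons of the adult mouse visual cortex were described against the mixed nuclei of the same tissue, over 48 libraries of sorted VIP nuclei and 48 libraries of total nuclei. The members were all 48 libraries named VIP and all 48 named total, out of 96 libraries in the series. Each VIP library was paired with the total library of equal mouse line, virus, light condition and biological replicate number, which gave 48 pairs. Gene families were then read across the pairs in the order transcription factors, receptors, ion channels, adhesion proteins, and the neuropeptide and GABA machinery.

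VIP interneurons are inhibitory neurons of the cerebral cortex that release GABA and the peptide VIP. They arise in the caudal ganglionic eminence of the embryo, carry the ionotropic serotonin receptor Htr3a and nicotinic acetylcholine receptors, and mainly contact other inhibitory neurons, above all somatostatin cells, so that their firing releases pyramidal cells from inhibition. In the cortex many of them have a vertical, bipolar shape, and subsets also hold the peptides Crh and Cck, the calcium-binding protein calretinin (Calb2) or the acetylcholine enzyme Chat.

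All mice were adult, homozygous for floxed alleles of Igf1 enhancers (lines E1, E23 and E123) and heterozygous for a Flp recombinase allele at Vip. The visual cortex received an AAV with a Syn1 promoter and a Flp-dependent cassette for nuclear-envelope mScarlet, joined to Cre or, in controls, to dCre, at P55 to P60. Dark housing began 3 days later and lasted 10 to 12 days, and tissue was taken in the dark or after 1 h of light. Thus every group shared the floxed alleles, the Flp allele, an injection and dark housing, and the VIP fraction was limited to nuclei that took up the virus. Line E1 gave 17 pairs, E23 16 and E123 15, with 3 to 5 pairs for each of the 12 combinations of line, virus and light; 23 pairs were dark and 25 light. Since both fractions of a pair shared line, virus and light, the comparison was of fraction within condition. The labels do not state that replicates were separate animals, so p-values measure the spread between these libraries.

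Each library came from 50 to 100 nuclei. Counts per library ran from 1559883 to 9122515 in VIP nuclei, where 16296 to 21407 genes were detected (median 19124), and from 1881731 to 8972526 in total nuclei, where 19079 to 22733 were (median 20742). Levels are given as CPM, counts brought to a common library size, with sizes scaled by the trimmed mean of M-values. Differences are log2 values of VIP over total within pairs, fitted with edgeR's quasi-likelihood test over 15632 genes with enough counts, and a gene was called where its fitted fold was at least 2 and its adjusted p under 0.05. Over all genes tested 1036 were called higher in VIP nuclei (6.63%) and 1796 lower (11.5%), and the median log2 difference was -0.08. Called genes with a fold above 8 numbered 237 higher and 341 lower. The length index, the mean log2 CPM of genes over 100 kb minus that of genes under 10 kb, was 3.72 to 4.29 in the 8 libraries of dCre dark replicates 1 and 2 of E1 and E123, and 1.25 to 3.27 in the other 88. Without these 4 pairs 1043 genes were called higher and 1763 lower. For 76 genes (0.486%) the lowest VIP library lay above the highest total library, and for 0 genes (0.0%) every VIP library lay below every total library. In bulk samples of this kind, fewer cells of a type and less RNA per cell cannot be told apart. The fitted within-pair fold can differ from the ratio of mean levels.

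The promoters of a precursor pair that lay on opposite sides of the comparison, Vip and Sst, and of Tac2, the precursor with the largest fitted fold, are shown with capitals for the cyclic-AMP response motif, either its TGACG core or the complete TGACGTCA, searched on both strands. They are RefSeq sequences of GRCm38.p6, 250 bases before to 50 bases after the start, 5′ to 3′ on the gene's own strand. Vip lies at chr10:5638968-5639267 (plus strand), Tac2 at chr10:127724228-127724527 (plus strand) and Sst at chr16:23890795-23891094 (minus strand).
Vip: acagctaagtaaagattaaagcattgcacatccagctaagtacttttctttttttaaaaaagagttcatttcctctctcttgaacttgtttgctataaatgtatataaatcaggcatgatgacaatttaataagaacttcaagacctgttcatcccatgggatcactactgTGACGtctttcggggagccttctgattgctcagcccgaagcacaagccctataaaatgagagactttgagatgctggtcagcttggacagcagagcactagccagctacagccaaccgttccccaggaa
Tac2: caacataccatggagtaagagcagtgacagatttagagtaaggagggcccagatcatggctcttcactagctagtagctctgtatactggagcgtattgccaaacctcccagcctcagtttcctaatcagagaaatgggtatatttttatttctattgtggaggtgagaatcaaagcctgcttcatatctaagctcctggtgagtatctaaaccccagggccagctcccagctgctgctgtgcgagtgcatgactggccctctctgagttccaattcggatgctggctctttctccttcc
Sst: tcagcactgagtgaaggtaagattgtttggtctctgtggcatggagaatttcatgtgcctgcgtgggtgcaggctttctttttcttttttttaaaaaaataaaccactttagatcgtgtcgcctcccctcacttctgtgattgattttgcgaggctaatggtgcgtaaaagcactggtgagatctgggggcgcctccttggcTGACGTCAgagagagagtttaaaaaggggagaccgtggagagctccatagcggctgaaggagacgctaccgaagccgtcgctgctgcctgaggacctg
The core began 79 bases before the start of Vip and the complete motif 48 bases before that of Sst, while these letters were not in the Tac2 window. Among neuropeptide precursors with a promoter sequence, the core was present in 4 of 10 called higher (Cck, Cort, Scg2 and Vip), in 3 of 6 called lower (Adcyap1, Sst and Tac1) and in 4 of 7 not called. Over all 32851 promoters of the same length it was present in 20.8%, and the complete motif in 1.79%. A match to these letters is a description of the window and not a site of binding.

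The sort labels were checked first on the peptide and transmitter genes that define the cells (the plot of markers by pair). Vip, on chromosome 10 (5639218 to 5647617), ran from 619 to 14098 CPM (median 4653) in VIP and from 0 to 194 CPM (median 28.6) in total libraries, a log2 difference of 7.59 ± 0.46 (SE; edgeR, adjusted p = 1.07e-19). Crh, the corticotropin-releasing hormone precursor on chromosome 3 (19693401 to 19695396), ran from 27.5 to 696 CPM (median 189) in VIP and from 0 to 24.8 CPM (median 1.88) in total libraries, with a difference of 6.18 ± 0.32 (edgeR, adjusted p = 4.76e-22). For both peptides every VIP library was above every total library. Gad1, the main GABA-synthesising enzyme on chromosome 2 (70553072 to 70602014), ran from 124 to 973 CPM (median 539) in VIP and from 14.4 to 229 CPM (median 77.7) in total libraries, with a difference of 2.83 ± 0.12 (edgeR, adjusted p = 1.64e-26). It was higher in VIP in 48 of 48 pairs, but the groups overlapped. Slc17a7, the vesicular glutamate transporter of cortical excitatory neurons on chromosome 7 (45163949 to 45176142), ran from 1.80 to 55.5 CPM (median 12.2) in VIP and from 37.4 to 112 CPM (median 70.3) in total libraries, with a difference of -2.36 ± 0.17 (edgeR, adjusted p = 1.05e-17). It was lower in VIP in 48 of 48 pairs, with overlapping groups, and no VIP library was at 0. Gad1 has an overlapping antisense gene, Gad1os, whose reads cannot be told apart from its own.

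**Figure D1:**
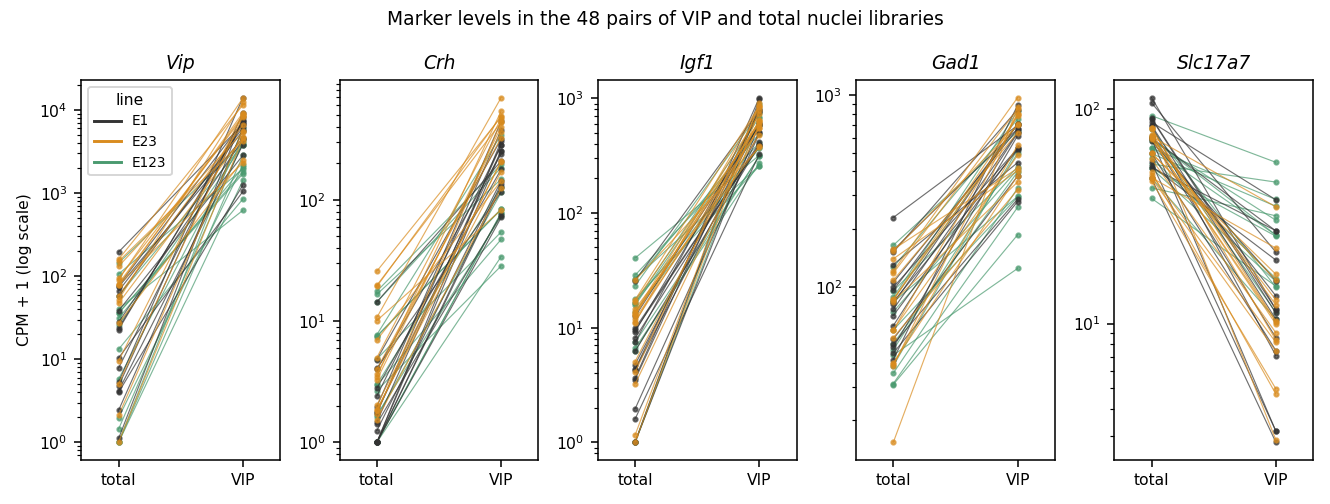
Levels of Vip, Crh, Igf1, Gad1 and Slc17a7 in the total (left) and VIP (right) library of each pair (CPM + 1, logarithmic vertical axis). Each line joins 1 of 48 pairs and is coloured by mouse line. In all 48 pairs the VIP library lies above its total for Vip, Crh, Igf1 and Gad1 and below it for Slc17a7.

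Marker lists of cell types, chosen with earlier results of these data known, were read next. Their counts stand beside the 6.63% called higher and 11.5% called lower over all genes tested. All 15 VIP interneuron markers and all 10 pan-GABAergic markers were called higher, with median log2 differences of 6.15 and 3.33. The summed VIP list ran from 12658 to 48543 CPM in the VIP libraries and from 391 to 2016 CPM in the total libraries. Of 16 excitatory neuron markers 15 were called lower (median -2.20), all but Camk2a, which stood at -0.37 ± 0.08. All 12 tested oligodendrocyte markers of 14 listed (median -3.35) and 8 of 10 tested microglia markers (median -2.44) were called lower. Of 16 pan-neuronal genes 0 were called higher and 2 lower (Nefl and Nefm), near the shares of all genes, with a median of -0.13. The sum of the 16 was lower in the VIP library in 40 of 48 pairs. Of these 16, 5 were higher and 8 lower at an unadjusted p under 0.05 (edgeR), and DESeq2 called 0 higher and 2 lower.

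Other interneuron classes were mixed. Of 6 tested parvalbumin markers 4 were called lower, among them Pvalb at -1.21 ± 0.33 and Tac1 at -3.16 ± 0.63, while Pthlh, the parathyroid hormone-like peptide, was called higher at 5.59 ± 0.35. Sst and Pdyn of the somatostatin list were called lower, and Crhr2 and Elfn1 higher. The summed somatostatin list was higher in VIP in 41 of 48 pairs. Elfn1 was a large part of that sum in VIP libraries, with a mean of 206 CPM against 10.2 CPM in total libraries. Lamp5 was called lower and Reln higher among the 3 tested markers of Lamp5 and Sncg cells. Sncg itself did not pass the count filter: its median was 1.71 CPM in VIP and 0 in total libraries, and it was above 0 in 42 VIP and 4 total libraries.

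RNA of other cell types was present in the VIP libraries at varied levels. The median sum was lower than in total libraries for each list below except the endothelial and mural one. The summed excitatory list ran from 425 to 2675 CPM (median 812) in VIP and from 1463 to 2202 CPM (median 1714) in total libraries. It was lower in 47 of 48 pairs, at a median of 49.0% of the paired total. Camk2a, the member not called, was a large part of this sum, with means of 670 CPM in VIP and 801 CPM in total libraries. In the fit Camk2a stood at 77.3% of total, and the 15 called members at 8.98% (Foxp2) to 37.8% (Bcl11b). The oligodendrocyte sum ran from 99.4 to 2286 CPM (median 277) against 275 to 4793 CPM (median 1633), and the microglia sum from 82.2 to 258 CPM against 135 to 1531 CPM. Astrocyte markers differed least: 2 of 10 were called lower and the sum was 243 to 2983 CPM (median 391) against 314 to 1046 CPM (median 560). In 33 of 48 VIP libraries the defining oligodendrocyte factor Sox10 was at 0, as were the microglial Tmem119 and Siglech in 29 VIP libraries each. Among endothelial and mural markers only Tek and Pdgfrb passed the count filter. Pdgfrb was called higher in VIP nuclei at 2.22 ± 0.59, and Tek was not called at 0.34 ± 0.30. The sum was 1.26 to 615 CPM (median 27.4) in VIP libraries against 4.94 to 134 CPM (median 19.2), higher in 33 of 48 pairs. Single VIP libraries stood apart: E23 dCre light replicate 1 was highest for the excitatory (2675 CPM) and oligodendrocyte (2286 CPM) lists, E123 Cre light replicate 3 for the astrocyte list (2983 CPM), and E23 Cre dark replicate 2 for the endothelial list (615 CPM). E23 Cre light replicate 3 had an oligodendrocyte sum of 2243 CPM. Without these 4 pairs, a choice made after seeing the data, 1021 genes were called higher and 1837 lower.

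**Figure D2:**
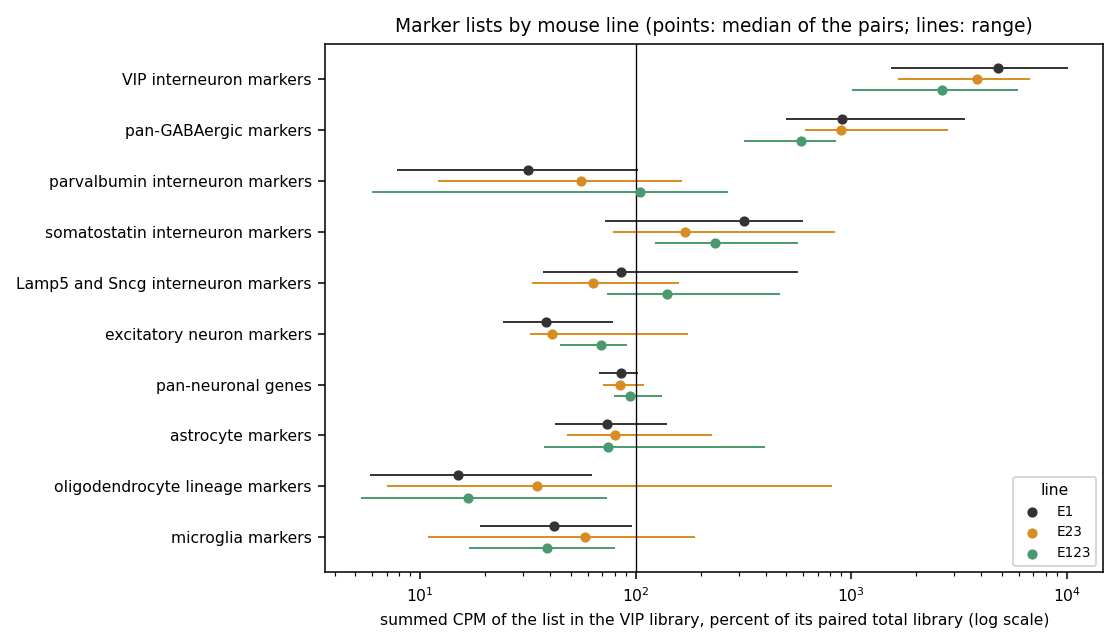
Summed level of each marker list in VIP libraries as a percent of the paired total library (logarithmic axis), by mouse line; points are the median over the pairs of the line and lines the range. The VIP and pan-GABAergic lists lie far above 100%, and the excitatory list has its highest median in E123, at 68.9% against 38.3% in E1 and 41% in E23.

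The 37 gene families held 1364 listed genes, of which 894 passed the count filter. Each count below is a description of the members that passed, and stands beside the 6.63% called higher and 11.5% called lower over all genes. Transcription factors had 27 of 204 tested members higher (13.2%) and 47 lower (23%), with 401 listed. Receptors had 32 of 143 higher (22.4%) and 45 lower (31.5%), with 251 listed. Channels had 25 of 170 higher (14.7%) and 31 lower (18.2%), with 235 listed. Adhesion and guidance proteins had 37 of 273 higher (13.6%) and 44 lower (16.1%), with 322 listed. The neuropeptide and GABA families had 26 of 104 higher (25.0%) and 22 lower (21.2%), with 155 listed. In every one of these 5 roles both shares lay above those of all genes tested.

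**Figure D3:**
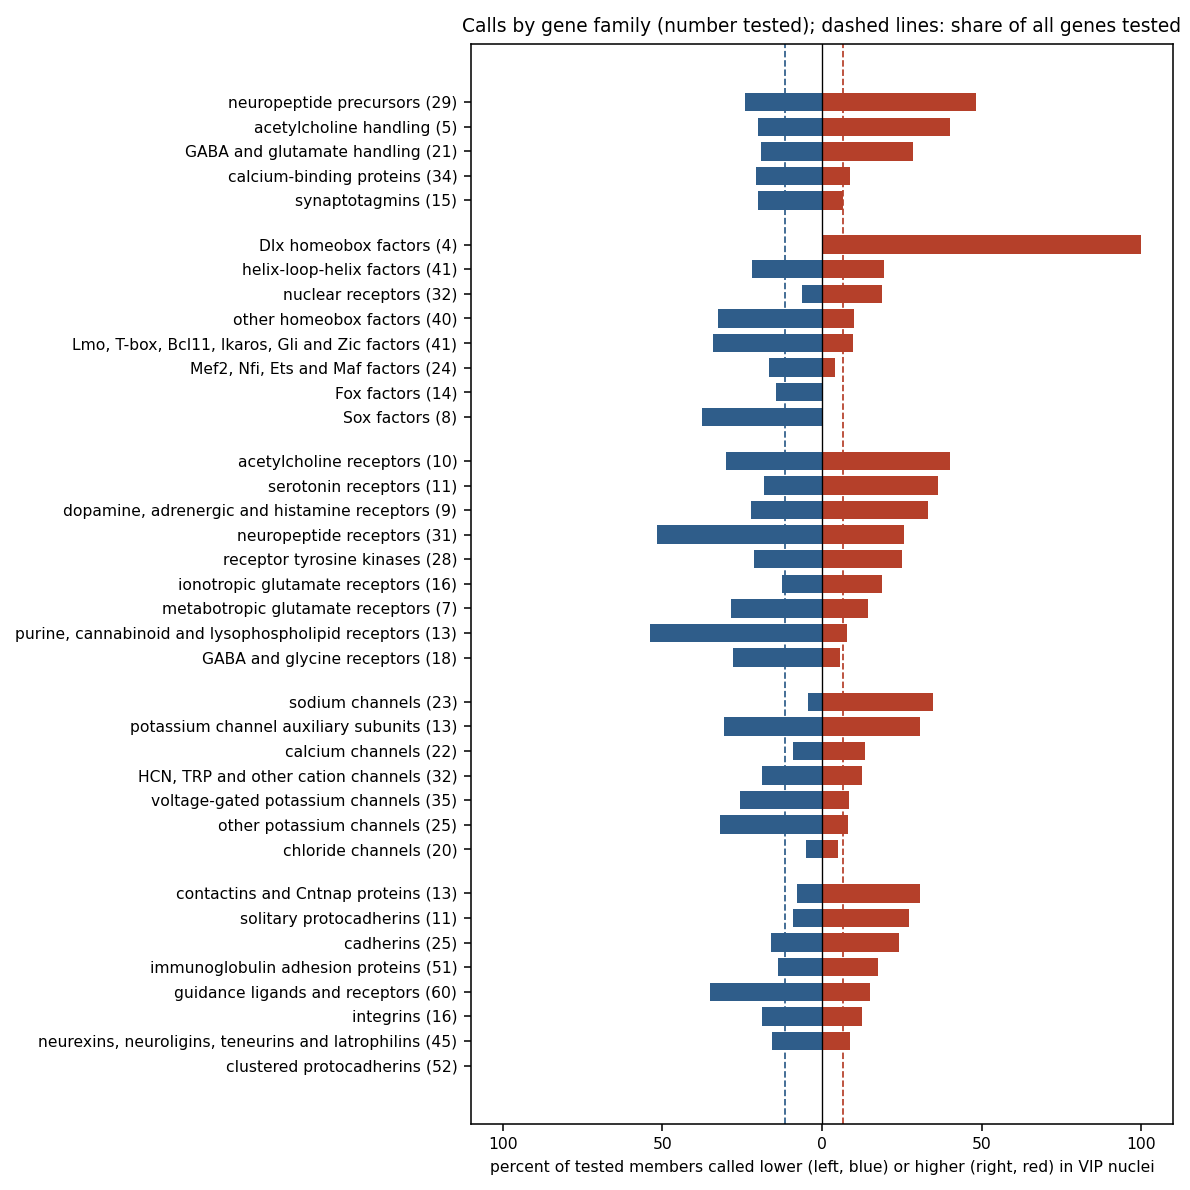
Share of the tested members of each gene family called higher (to the right) and lower (to the left) in VIP nuclei, in percent, with the number tested in brackets; dashed lines mark the share over all genes tested, 6.63% higher and 11.5% lower. Dlx factors (100%), neuropeptide precursors (48.3%) and the 2 acetylcholine families (40% each) have the highest shares called higher, and clustered protocadherins have 0.

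Among transcription factors, all 4 tested Dlx factors, homeobox proteins that direct forebrain GABAergic fate, were called higher; Dlx3 and Dlx4 did not pass the count filter. Dlx1 ran from 30.5 to 177 CPM (median 98) in VIP and from 0 to 14.2 CPM (median 5.18) in total libraries, with no overlap and a difference of 4.48 ± 0.21 (edgeR, adjusted p = 1.52e-24). Dlx6 stood at 4.51 ± 0.30, Dlx2 at 3.95 ± 0.31 and Dlx5 at 3.44 ± 0.38. Dlx1 and Dlx6 overlap antisense genes whose reads cannot be told apart from theirs.

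Of 40 tested other homeobox factors 4 were called higher and 13 lower. Prox1, a factor of interneurons from the caudal ganglionic eminence, ran from 42.0 to 509 CPM (median 171) in VIP and from 4.15 to 48.8 CPM (median 17.8) in total libraries (difference 3.28 ± 0.15; edgeR, adjusted p = 5.25e-26). The VIP libraries were above their totals in 48 of 48 pairs and overlapped only at the extremes. Pbx3 was also called higher, at 2.02 ± 0.13, as was Zeb2, at 1.27 ± 0.07. Those called lower included the excitatory neuron factors Cux2 (-1.70 ± 0.16) and Emx1 (-2.23 ± 0.41). Satb1, known in interneurons of the medial ganglionic eminence, was also lower at -1.57 ± 0.15. Lhx6, the defining factor of those interneurons, did not pass the count filter, with a median of 0 CPM in VIP and 2.46 CPM in total libraries.

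Helix-loop-helix factors had 8 of 41 tested members higher and 9 lower. Npas1, a PAS-domain factor found in interneurons, ran from 26.9 to 186 CPM (median 68.2) in VIP and from 0 to 13.3 CPM (median 2.46) in total libraries, with no overlap between fractions (difference 4.68 ± 0.27; edgeR, adjusted p = 9.24e-21). Its relative Npas3 ran from 1336 to 7199 CPM (median 2771) in VIP and from 42.0 to 562 CPM (median 153) in total libraries, again without overlap (4.07 ± 0.14; edgeR, adjusted p = 8.98e-30). Tcf4, a class I factor that pairs with other helix-loop-helix proteins, had a smaller but uniform difference of 1.47 ± 0.05 (edgeR, adjusted p = 5.24e-35), and it too did not overlap. Ahrr, the repressor of the aryl hydrocarbon receptor, stood at 5.25 ± 0.51. The neurogenic factors of excitatory cells Neurod1 (-2.55 ± 0.37), Neurod2 (-2.14 ± 0.29) and Neurod6 (-2.67 ± 0.20) and the oligodendrocyte factor Olig1 (-3.02 ± 0.36) were called lower. Npas4, an activity-induced factor, was not called at 0.43 ± 0.27 (edgeR, adjusted p = 0.189).

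Nuclear receptors were the other factor family with more calls higher than lower, 6 and 2 of 32. Nr2f2, also called COUP-TFII and known in interneurons of the caudal ganglionic eminence, ran from 3.81 to 70.4 CPM (median 22.8) in VIP and from 0 to 11.5 CPM (median 2.02) in total libraries (3.61 ± 0.27; edgeR, adjusted p = 3.54e-18). Nr2e1, an orphan receptor of the tailless type, stood at 4.36 ± 0.43, the oestrogen receptor Esr1 at 3.12 ± 0.29, the retinoid X receptor Rxra at 3.09 ± 0.28, the mineralocorticoid receptor Nr3c2 at 1.66 ± 0.08 and the thyroid hormone receptor Thrb at 1.14 ± 0.05. Rorb, a marker of layer 4 excitatory neurons, was lower at -1.68 ± 0.25, and Nr4a2 at -1.48 ± 0.27. The related Nr2f1 was not called, at 0.50 ± 0.13.

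In the remaining factor families more members were called lower than higher in VIP nuclei, as over all genes tested (11.5% and 6.63%). The shares called lower were 16.7% of Mef2, Nfi, Ets and Maf factors and 14.3% of Fox factors, near that of all genes. They were 34.1% of Lmo, T-box, Bcl11, Ikaros, Gli and Zic factors and 37.5% of Sox factors. Maf was the only one of 24 tested Mef2, Nfi, Ets and Maf factors called higher; it ran from 53.8 to 277 CPM (median 138) in VIP and from 2.48 to 46.9 CPM (median 16.6) in total libraries, with no overlap (3.08 ± 0.16; edgeR, adjusted p = 8.33e-24). Nfia (-1.70 ± 0.10), Etv1 (-1.60 ± 0.18), Etv6 and Elk4 were lower. Among Lmo, T-box, Bcl11, Ikaros, Gli and Zic factors 4 of 41 were called higher and 14 lower. The zinc finger factors Sp8 (5.85 ± 0.52), known in interneurons of the caudal ganglionic eminence, Sall1 (2.76 ± 0.33) and Zbtb16 (1.86 ± 0.10) were higher. The cortical projection neuron factors Tbr1 (-2.17 ± 0.27), Fezf2 (-1.87 ± 0.38) and Bcl11b (-1.40 ± 0.25) were lower, as was St18 (-4.03 ± 0.32). Of 8 Sox and 14 Fox factors tested, 0 were called higher by edgeR; at an unadjusted p under 0.05 0 Sox and 2 Fox factors were higher, and DESeq2 called 0 and 0. Sox6, a factor of medial ganglionic eminence interneurons and the oligodendrocyte lineage, was lower at -3.48 ± 0.43, the oligodendrocyte factor Sox10 at -5.37 ± 0.54 and Foxp2, known in deep-layer neurons, at -3.48 ± 0.36. Sox6 overlaps an antisense gene.

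**Figure D4:**
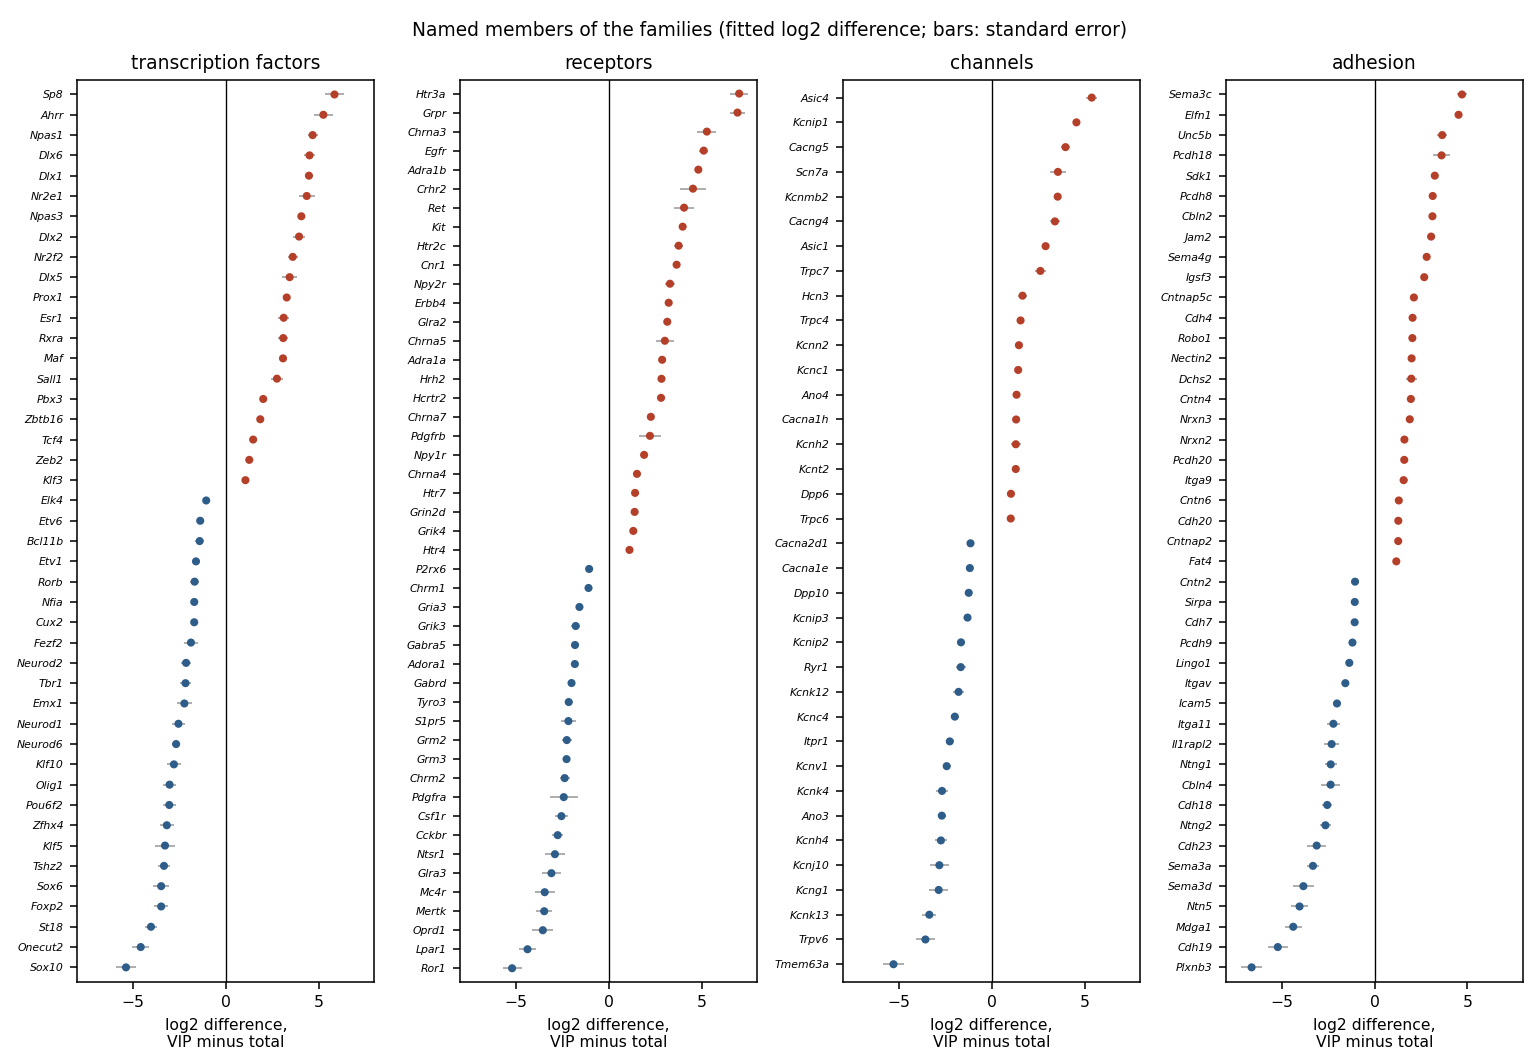
Fitted log2 difference of VIP minus total nuclei for named members of the families; points are the fit over 48 pairs and bars its standard error, with 0 meaning equal levels. The 4 panels hold transcription factors, receptors, channels and adhesion proteins; Htr3a (7.02) and Grpr (6.93) lie farthest to the right among the members plotted and Plxnb3 (-6.62) farthest to the left.

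Receptors for neuromodulators carried large differences. Htr3a, the ionotropic serotonin receptor that marks this interneuron class, ran from 56.0 to 1411 CPM (median 334) in VIP and from 0 to 44.4 CPM (median 0.807) in total libraries, without overlap (7.02 ± 0.47; edgeR, adjusted p = 5.03e-18). Among the 11 tested serotonin receptors Htr2c (3.77 ± 0.23), Htr7 (1.42 ± 0.17) and Htr4 (1.12 ± 0.12) were also called higher, and Htr1a (-2.63 ± 0.55) and Htr5b (-3.79 ± 0.64) lower. Htr2a was not called, at 0.20 ± 0.19.

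Acetylcholine receptors split by type. Of 10 tested members, 4 nicotinic subunits were called higher, Chrna3, Chrna5, Chrna7 and Chrna4, and 3 muscarinic receptors were called lower, Chrm1, Chrm2 and Chrm4. Chrna7 ran from 102 to 499 CPM (median 183) in VIP and from 14.1 to 95.3 CPM (median 40.4) in total libraries, with no overlap (2.27 ± 0.10; edgeR, adjusted p = 1.59e-27). Chrna3 ran from 0 to 26.1 CPM (median 8.41) in VIP and from 0 to 4.29 CPM (median 0) in total libraries (5.28 ± 0.51), and Chrna5 and Chrna4 stood at 3.02 ± 0.48 and 1.52 ± 0.14. Chrm2 ran from 0 to 76.3 CPM (median 14.6) in VIP and from 28.8 to 189 CPM (median 70.6) in total libraries, lower in 45 of 48 pairs (-2.37 ± 0.26; edgeR, adjusted p = 6.72e-11). Not all muscarinic receptors followed: Chrm3 was not called, at 0.46 ± 0.05, nor was the nicotinic Chrnb2, at 0.35 ± 0.07.

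Arousal systems release noradrenaline and histamine in cortex. Of 9 tested dopamine, adrenergic and histamine receptors 3 were called higher and 2 lower. Adra1b ran from 76.4 to 922 CPM (median 201) in VIP and from 0 to 21.6 CPM (median 7.45) in total libraries (4.83 ± 0.17; edgeR, adjusted p = 1.37e-29) and Adra1a from 88.1 to 368 CPM (median 206) in VIP and from 3.82 to 72.5 CPM (median 25.1) in total libraries (2.88 ± 0.12). Both alpha-1 receptors were without overlap, while the third, Adra1d, was called lower at -1.02 ± 0.29. The histamine receptor Hrh2 stood at 2.84 ± 0.14. Drd1 was not called, at -0.10 ± 0.42, and Drd2 did not pass the count filter.

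Neuropeptide receptors had 8 of 31 tested members higher and 16 lower. Grpr, the receptor for gastrin-releasing peptide, ran from 8.29 to 107 CPM (median 63.4) in VIP and from 0 to 7.49 CPM (median 0) in total libraries, with no overlap (6.93 ± 0.40; edgeR, adjusted p = 7.56e-21). The neuropeptide Y receptors Npy2r (3.30 ± 0.25), Npy1r (1.91 ± 0.13) and Npy5r (1.69 ± 0.19), the orexin receptor Hcrtr2 (2.82 ± 0.20), the relaxin receptor Rxfp1 (1.60 ± 0.18) and the PACAP receptor Adcyap1r1 (1.35 ± 0.09) were higher. The 2 receptors for Crh peptides went opposite ways: Crhr2 at 4.54 ± 0.72 and Crhr1 at -1.75 ± 0.25. Opioid receptors Oprm1 (-1.60 ± 0.15), Oprd1 (-3.55 ± 0.57) and Oprl1 (-1.94 ± 0.31), the cholecystokinin receptor Cckbr (-2.75 ± 0.29) and the neurotensin receptor Ntsr1 (-2.89 ± 0.53) were lower. Vipr1, a receptor for VIP itself, was not called at -0.21 ± 0.18 (edgeR, adjusted p = 0.347), and Vipr2 did not pass the filter.

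Of 18 tested GABA and glycine receptors 1 was called higher and 5 lower, beside 3 and 2 of 16 ionotropic and 1 and 2 of 7 metabotropic glutamate receptors. Glra2, an alpha subunit of the glycine receptor, was the one GABA or glycine receptor subunit called higher; it ran from 44.7 to 216 CPM (median 103) in VIP and from 0 to 61.4 CPM (median 12.8) in total libraries (3.15 ± 0.16; edgeR, adjusted p = 1.05e-24). Gabra5 (-1.81 ± 0.12) and Gabrd (-2.0 ± 0.17), subunits of extrasynaptic GABA-A receptors, and Glra3 (-3.08 ± 0.49) were lower. The ionotropic glutamate receptors called higher included Grin2d (1.40 ± 0.13) and Grik4 (1.32 ± 0.09), and those called lower were Gria3 (-1.57 ± 0.14) and Grik3 (-1.78 ± 0.23). Grin2d is an NMDA receptor subunit known in interneurons. The metabotropic Grm2 (-2.25 ± 0.27) and Grm3 (-2.27 ± 0.17) were lower and Grm4 (1.12 ± 0.20) higher. Gabra5 overlaps another annotated gene, and reads of the shared stretch cannot be told apart.

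Cannabinoid and growth factor receptors included several without overlap. Cnr1, the cannabinoid receptor of axon terminals, ran from 285 to 1909 CPM (median 912) in VIP and from 25.2 to 199 CPM (median 66.0) in total libraries (3.66 ± 0.12; edgeR, adjusted p = 2.42e-31). It was the only one of 13 tested purine, cannabinoid and lysophospholipid receptors called higher, and 7 were called lower, including the adenosine receptor Adora1 (-1.82 ± 0.17) and Lpar1 (-4.37 ± 0.46). Of 28 receptor tyrosine kinases 7 were called higher and 6 lower. Erbb4, the neuregulin receptor of cortical interneurons, ran from 2826 to 10609.7 CPM (median 4633) in VIP and from 121 to 1644 CPM (median 503) in total libraries (3.23 ± 0.13; edgeR, adjusted p = 2.05e-26). Egfr ran from 146 to 699.9 CPM (median 352) in VIP and from 0 to 82.6 CPM (median 9.87) in total libraries (5.11 ± 0.25) and Kit, the stem cell factor receptor, from 299 to 1271 CPM (median 695) in VIP and from 6.73 to 116 CPM (median 51.7) in total libraries (3.98 ± 0.15). In none of these 3 kinases did the fractions overlap. Ret (4.06 ± 0.56) and Alk (1.85 ± 0.15) were also higher. Ror1 (-5.20 ± 0.51), Mertk (-3.47 ± 0.43) and the microglial Csf1r (-2.55 ± 0.35) were lower. Egfr overlaps the antisense gene Egfros.

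Ion channels showed more equal shares. Sodium channel families stood apart by count, with 8 of 23 tested members higher and 1 lower. Asic4 and Asic1, acid-sensing cation channels, ran from 14.6 to 144 CPM (median 58.5) in VIP and from 0 to 10.9 CPM (median 0.967) in total libraries for Asic4 and from 33.6 to 173 CPM (median 84.0) in VIP and from 0.578 to 27.3 CPM (median 11.8) in total libraries for Asic1. Neither overlapped between fractions, with differences of 5.39 ± 0.31 and 2.90 ± 0.14 (edgeR, adjusted p = 7.06e-21 and 6.82e-26). Scn7a (3.57 ± 0.41) and Scn9a (1.29 ± 0.11) were higher, while the common neuronal channels Scn1a (0.34 ± 0.05), Scn2a (0.14 ± 0.04) and Scn8a (-0.35 ± 0.05) were not called.

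Potassium channel subunits that set the inactivating Kv4 current went in both directions. Kcnip1, a calcium-binding partner of Kv4 channels, ran from 495 to 2041 CPM (median 982) in VIP and from 7.42 to 199.8 CPM (median 38.7) in total libraries, without overlap (4.56 ± 0.17; edgeR, adjusted p = 1.12e-28). Its relatives Kcnip2 (-1.65 ± 0.19) and Kcnip3 (-1.3 ± 0.13) were called lower. The partner Dpp6 was higher (1.04 ± 0.06, or 0.95 and under the fold threshold with the length index as a covariate) and Dpp10 lower (-1.23 ± 0.12). The Kv4 pores themselves were not called, Kcnd2 at -0.83 ± 0.07 and Kcnd3 at 0.80 ± 0.07. Kcnmb2, an auxiliary subunit of the BK channel, ran from 304 to 1066 CPM (median 524) in VIP and from 8.11 to 189 CPM (median 51.6) in total libraries, without overlap (3.55 ± 0.18; edgeR, adjusted p = 1.13e-22), whereas the BK pore Kcnma1 was lower at -1.26 ± 0.09. Kcnip1 overlaps Kcnmb1 on the genome, so reads of the shared stretch cannot be told apart.

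Of 35 voltage-gated potassium channels 3 were higher and 9 lower. Among the 3, Kcnc1, a Kv3 channel of fast-spiking cells, stood at 1.43 ± 0.09 and Kcnh2 at 1.3 ± 0.28. Kcnv1 (-2.42 ± 0.21), Kcnh4 (-2.73 ± 0.34) and the Kv3 channel Kcnc4 (-1.98 ± 0.22) were lower, and Kcnc2 was not called at 0.68 ± 0.10. The SK channel Kcnn2 (1.47 ± 0.07) and the sodium-activated Kcnt2 (1.3 ± 0.06) were the 2 higher of 25 other potassium channels, against 8 lower. Among the 8 were the tandem-pore channels Kcnk13 (-3.35 ± 0.37) and Kcnk4 (-2.67 ± 0.32) and the glial inward rectifier Kcnj10 (-2.81 ± 0.52).

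Calcium channels had 3 of 22 tested members higher and 2 lower, HCN, TRP and other cation channels 4 and 6 of 32, and chloride channels 1 and 1 of 20. Cacng5, a member of the gamma family whose relatives also act as AMPA receptor partners, ran from 35.8 to 167 CPM (median 98.5) in VIP and from 0 to 25.8 CPM (median 6.70) in total libraries, without overlap (3.98 ± 0.22; edgeR, adjusted p = 5.38e-22). Cacng4 stood at 3.41 ± 0.29 and the T-type channel Cacna1h at 1.32 ± 0.13. The R-type channel Cacna1e (-1.17 ± 0.07) and the auxiliary subunit Cacna2d1 (-1.14 ± 0.08) were the 2 calcium channel members called lower. Receptor-operated Trpc7 (2.62 ± 0.29), Trpc4 (1.56 ± 0.09) and Trpc6 (1.03 ± 0.14) were higher with Hcn3 (1.66 ± 0.24). The intracellular calcium release channels Itpr1 (-2.25 ± 0.20), Ryr1 (-1.66 ± 0.26) and Ryr3 (-1.52 ± 0.14) were lower. Ano4 was higher (1.34 ± 0.09) and Ano3 lower (-2.68 ± 0.22), the 2 calls among chloride channels and anoctamins.

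Synaptic adhesion proteins of the neurexin, neuroligin, teneurin and latrophilin families had 4 of 45 tested members higher and 7 lower. Elfn1, a postsynaptic protein that recruits presynaptic glutamate receptors and is known in somatostatin and VIP cells, ran from 61.7 to 529 CPM (median 189) in VIP and from 0.684 to 35.8 CPM (median 8.08) in total libraries, without overlap (4.52 ± 0.18; edgeR, adjusted p = 2.18e-27). Nrxn3, a presynaptic neurexin, ran from 6798 to 28655 CPM (median 12055) in VIP and from 2065 to 7593 CPM (median 3151) in total libraries, higher in 48 of 48 pairs with slight overlap (1.90 ± 0.06; edgeR, adjusted p = 2.88e-35). Nrxn2 was higher at 1.60 ± 0.09. The secreted neurexin partners differed in direction, with Cbln2 higher (3.11 ± 0.16) and Cbln4 lower (-2.37 ± 0.49). The netrin-G proteins Ntng1 (-2.36 ± 0.33) and Ntng2 (-2.65 ± 0.29), presynaptic on excitatory axons, and the latrophilin Adgrl2 (-2.19 ± 0.24) were lower.

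Immunoglobulin adhesion proteins had 9 of 51 tested members higher and 7 lower. Sdk1, a sidekick protein of synaptic lamina matching in retina, ran from 499.7 to 2003 CPM (median 908) in VIP and from 21 to 328 CPM (median 90.1) in total libraries, without overlap (3.24 ± 0.10; edgeR, adjusted p = 2.88e-35). Cntn4 ran from 1621 to 5623 CPM (median 2761) in VIP and from 398 to 1612 CPM (median 698) in total libraries, also without overlap (1.95 ± 0.06; edgeR, adjusted p = 1.55e-35). Igsf3 (2.67 ± 0.14) was the remaining one without overlap, and Jam2 (3.04 ± 0.20), Alcam (1.56 ± 0.07), Dscam (1.04 ± 0.05), Cntn6 (1.3 ± 0.07), Cntnap5c (2.12 ± 0.15) and Cntnap2 (1.27 ± 0.08) were higher. Mdga1 (-4.38 ± 0.46), Icam5, which sits on dendrites of excitatory neurons (-2.02 ± 0.17), and Opcml (-1.04 ± 0.07) were lower. All 13 contactins and Cntnap proteins passed the filter, and 4 were called higher and 1 lower.

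Cadherins had 6 of 25 higher and 4 lower. Cdh4 (2.04 ± 0.14), Cdh20 (1.28 ± 0.09), Cdh6 (1.07 ± 0.08) and Cdh9 (1.04 ± 0.16) were higher, and Cdh18 (-2.55 ± 0.28), Cdh7 (-1.07 ± 0.20) and Cdh19 (-5.21 ± 0.52) lower. Among solitary protocadherins Pcdh8 ran from 15.7 to 194 CPM (median 78.2) in VIP and from 1.77 to 32.7 CPM (median 8.32) in total libraries (3.13 ± 0.15; edgeR, adjusted p = 1.02e-26), Pcdh18 and Pcdh20 were also higher, and Pcdh9 was lower in 48 of 48 pairs (-1.19 ± 0.07). Of 52 tested clustered protocadherins, the isoforms thought to give single neurons an identity, 0 were called in either direction by edgeR, with a median of 0.04. At the adjusted p alone 15 of them passed, 20 had an unadjusted p under 0.05, and DESeq2 called 3. Their genes share exons and overlap, so the reads of single isoforms cannot be told apart.

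Guidance ligands and receptors had 9 of 60 tested members higher and 21 lower. Sema3c, a secreted semaphorin, ran from 55.6 to 485 CPM (median 218) in VIP and from 0 to 44.8 CPM (median 9.84) in total libraries, without overlap (4.70 ± 0.25; edgeR, adjusted p = 4.81e-22). The netrin receptor Unc5b ran from 4.50 to 194 CPM (median 35.9) in VIP and from 0 to 19.2 CPM (median 2.76) in total libraries (3.64 ± 0.26), and Sema4g (2.80 ± 0.18), the Slit receptor Robo1 (2.03 ± 0.08) and Epha3 (1.43 ± 0.11) were higher. All 3 Slit ligands were lower: Slit1 (-1.38 ± 0.12), Slit2 (-1.92 ± 0.27) and Slit3 (-2.90 ± 0.35). So were the secreted Sema3a (-3.32 ± 0.34), the netrin receptor Unc5d (-2.67 ± 0.27), and the Eph receptors Epha4 (-1.79 ± 0.15), Epha6 (-1.26 ± 0.11), Ephb1 (-1.82 ± 0.21), Ephb3 (-1.97 ± 0.43) and Ephb6 (-1.88 ± 0.20). The lowest value of all families belonged to Plxnb3, a plexin of the oligodendrocyte lineage, at -6.62 ± 0.55. Integrins had 2 of 16 higher, Itga9 (1.56 ± 0.21) and Itga3 (1.01 ± 0.19), and 3 lower.

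Neuropeptide precursors had 14 of 29 tested members called higher and 7 lower, with 54 listed. Tac2, the neurokinin B precursor, ran from 105 to 2736 CPM (median 435) in VIP and from 0 to 29.0 CPM (median 0.796) in total libraries, without overlap (7.96 ± 0.44; edgeR, adjusted p = 4.13e-21). Igf1, a growth factor listed here with secreted peptides and the target of the floxed enhancers, ran from 257 to 1014 CPM (median 589) in VIP and from 0 to 39.4 CPM (median 8.67) in total libraries, without overlap (6.15 ± 0.32; edgeR, adjusted p = 6.71e-22). Pnoc, the nociceptin precursor, ran from 16.2 to 205 CPM (median 80.1) in VIP and from 0 to 14.6 CPM (median 2.41) in total libraries, again without overlap (4.96 ± 0.25; edgeR, adjusted p = 4.97e-23). Including Vip and Crh, 5 precursors had every VIP library above every total library. Reads of Igf1 and its antisense gene Igf1os cannot be told apart.

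Other peptides had ranges that overlapped between the fractions. Npy ran from 32.3 to 1221 CPM (median 254) in VIP and from 1.86 to 117 CPM (median 24.9) in total libraries (3.36 ± 0.25; edgeR, adjusted p = 3.16e-16) and Penk, the enkephalin precursor, from 7.97 to 1013 CPM (median 110.4) in VIP and from 0.813 to 80.3 CPM (median 14.8) in total libraries (2.74 ± 0.19). Cck ran from 78.3 to 2341 CPM (median 449.6) in VIP and from 21.7 to 408 CPM (median 206) in total libraries (1.41 ± 0.13). Edn3 (7.30 ± 0.48), Pthlh (5.59 ± 0.35) and the granin-type secretory proteins Vgf (1.76 ± 0.11) and Scg2 (1.58 ± 0.13) were higher. Sst, the peptide of another interneuron class, ran from 0 to 53.6 CPM (median 5.38) in VIP and from 0.684 to 129 CPM (median 23.1) in total libraries, lower in 43 of 48 pairs (-2.22 ± 0.27; edgeR, adjusted p = 5.47e-10). Tac1 (-3.16 ± 0.63), Pdyn (-3.74 ± 0.69), Adcyap1 (-2.82 ± 0.45), Grp (-3.85 ± 0.48) and the neurexophilin Nxph1 (-2.11 ± 0.24) were lower. Grp and its receptor Grpr were called in opposite directions.

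Genes of GABA handling were among those called higher, and with the glutamate genes listed beside them 6 of 21 tested were. Slc32a1, the vesicular GABA transporter, stood at 3.65 ± 0.31, the second synthesising enzyme Gad2 at 3.01 ± 0.18, the GABA transporter Slc6a11 at 1.49 ± 0.17 and the catabolic enzyme Abat at 1.55 ± 0.09. Gad1 was among the 6. Gad2 was the one of the 6 without overlap; it ran from 102 to 521 CPM (median 279.8) in VIP and from 3.76 to 94.6 CPM (median 37.7) in total libraries (edgeR, adjusted p = 3.51e-20). Slc17a7, the second vesicular glutamate transporter Slc17a6 (-3.41 ± 0.44), the glial glutamate transporter Slc1a3 (-2.09 ± 0.34) and Aldh1a1 (-2.74 ± 0.37) were lower.

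Acetylcholine handling and calcium-binding proteins had single large differences. Chat, the acetylcholine-synthesising enzyme, ran from 3.32 to 52.9 CPM (median 20.3) in VIP and from 0 to 4.49 CPM (median 0) in total libraries (7.13 ± 0.44; edgeR, adjusted p = 2.67e-21). It was above 0 in all 48 VIP libraries and at 0 in 38 total libraries. The vesicular transporter Slc18a3 lies within Chat, so their reads cannot be told apart where they share sequence; it did not pass the filter. Ache was higher at 2.22 ± 0.12. Calb2, calretinin, ran from 0.924 to 66.5 CPM (median 28.1) in VIP and from 0 to 12.3 CPM (median 1.63) in total libraries (4.04 ± 0.31; edgeR, adjusted p = 3.53e-17), and Calb1, calbindin, from 0 to 68.6 CPM (median 15.4) in VIP and from 26.3 to 131 CPM (median 62.4) in total libraries (-2.34 ± 0.26; edgeR, adjusted p = 7.71e-11). The calcium-binding proteins used to divide interneurons lay on different sides, with Calb2 higher and Calb1 and Pvalb lower. Of 15 synaptotagmins Syt10 was higher (1.56 ± 0.16), Syt4, Syt7 and Syt16 were lower, and Syt1, the main calcium sensor of release, stood at -0.07 ± 0.04, not called.

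Across families, 30 of 894 tested members had every VIP library above every total library, beside 76 of all 15632 genes tested (0.486%). By role they were 9 of 143 receptors, 6 of 104 in the neuropeptide and GABA families and 5 of 204 transcription factors. The others were 5 of 170 channels and 5 of 273 adhesion or guidance proteins. Protein-coding genes over 100 kb had larger shares called than shorter ones, 11.8% higher and 16.9% lower of 2202, against 3.33% and 10.0% of 2579 genes under 10 kb. Adhesion members had a median length of 116 kb and neuropeptide precursors of 8.4 kb. The balance of long over short genes was also higher in the VIP library in 33 of 48 pairs, with a median difference of 0.11 in log2. With the length index as a covariate adhesion proteins had 34 called higher and 46 lower, and all genes 987 and 1821.

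Across the study's conditions the differences of the markers kept their direction and varied in size. Mean pair differences of Vip in log2(CPM + 1) ran from 5.41 in E123 dCre dark to 9.78 in E1 Cre dark, those of Crh from 3.89 to 7.35 and those of Gad1 from 2.25 to 3.99, all above 0 in each of the 12 conditions. Slc17a7 ran from -3.77 to -1.06, below 0 in each. Igf1 ran from 4.10 in E123 Cre light to 7.67 in E1 dCre light. Of 64 genes plotted by condition 62 kept 1 direction in all 12, with Itga9 and Oprd1 as exceptions. Over all 211 called family members named by rule, 199 did, and the 12 others also included Fezf2, Kcnj10, Pvalb, Ryr1, Slc1a3, Tac1 and Trpc6.

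**Figure D5:**
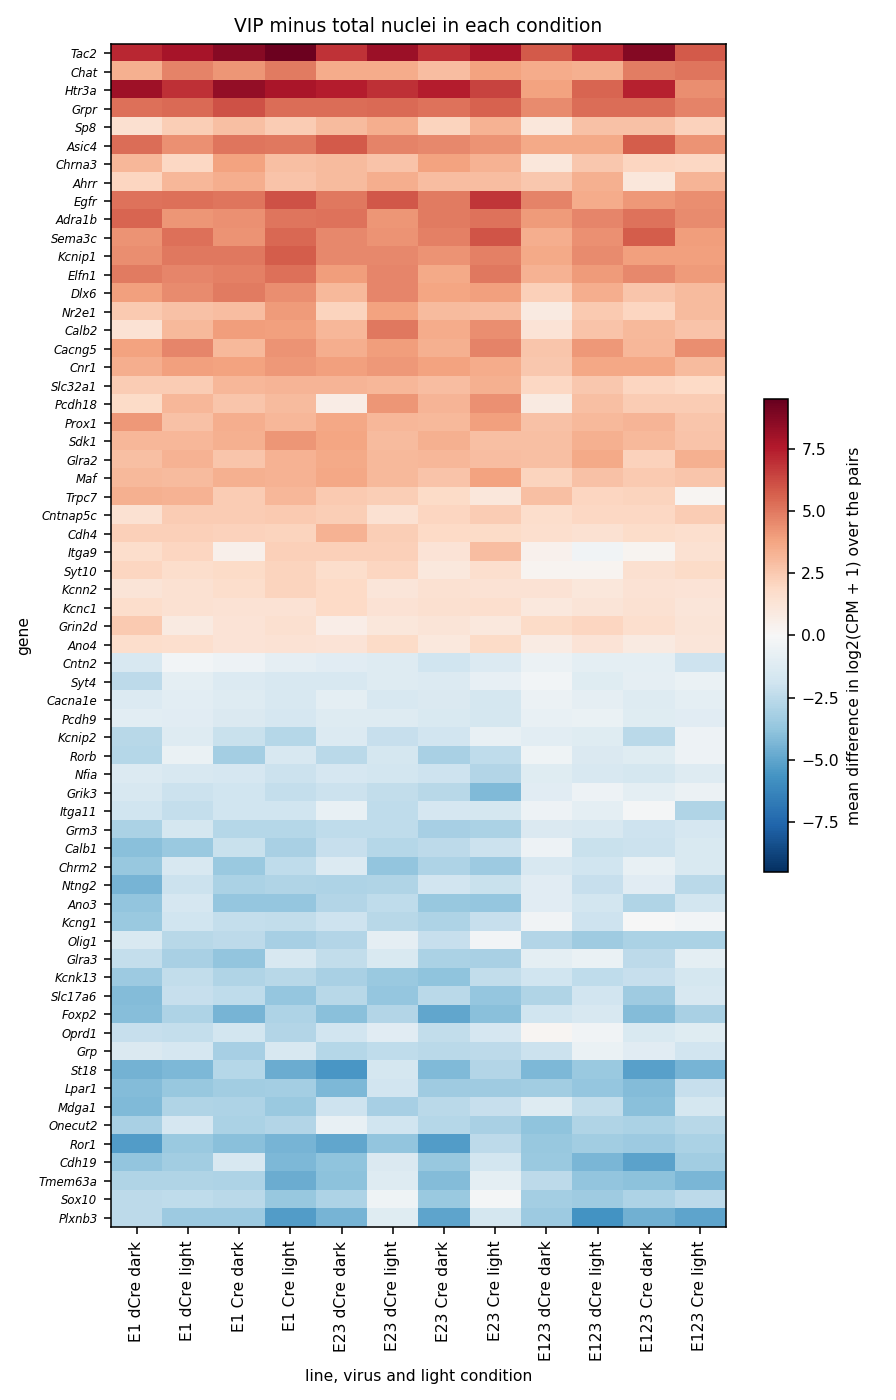
Mean pair difference of VIP minus total nuclei in log2(CPM + 1) for 64 named family members (rows) in each of the 12 combinations of mouse line, virus and light (columns); the colour scale runs from lower (blue) to higher (red) in VIP nuclei. Values run from -5.67 to 9.32 and 62 of 64 rows keep 1 colour throughout.

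Size varied with mouse line for 168 genes (1.07% of those tested; edgeR interaction, adjusted p under 0.05). In 140 of them the difference was highest in E123, and 105 were called lower overall; 104 were both, nearer to equality in E123 than in the other lines. For Celf2, an RNA-binding splicing factor, the mean pair difference was -0.96 in E123, against -2.11 in E1 and -2.23 in E23 (edgeR, adjusted p = 0.000890). For Kalrn, a dendritic exchange factor, it was -0.56, against -1.29 and -1.58 (edgeR, adjusted p = 0.000890). Family members among the 168 numbered 44, including Slc17a7 (adjusted p = 0.0108, edgeR), Erbb4 (0.0274) and Chrna3 (0.0219). The marker lists moved with line too: the excitatory list stood at a median of 68.9% of the total library in E123 against 38.3% in E1 and 41% in E23, and the pan-GABAergic list at 586% against 905% and 896%. Camk2a was a large part of the excitatory sum. Erbb4, with a mean of 4956 CPM in VIP libraries, was a large part of the pan-GABAergic sum. Fitted alone, the 15 pairs of E123 gave 735 genes called lower in VIP nuclei, against 1796 over all pairs. The part of excitatory nuclei in these 168 differences was not tested, and line cannot be told apart from when or how the mice of a line were sorted.

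For virus, the test found no gene. Between Cre and dCre mice 0 genes (0.0%) passed the edgeR interaction test, with 1177 at an unadjusted p under 0.05, and 1 gene passed in the fit without pairs. The difference of Igf1 had an adjusted p of 0.566 and that of Vip 0.964 in this test (edgeR). That test reads ratios to total libraries, where Igf1 ran only from 0 to 39.4 CPM. Mean Igf1 levels in VIP libraries were lower under Cre throughout. In E123 they were 313 CPM (Cre) and 440 CPM (dCre) in the dark, and 316 and 747 CPM after light. In E1 they were 417 and 646 CPM in the dark, and 505 and 873 CPM after light. In E23 they were 521 and 629 CPM in the dark, and 658 and 801 CPM after light. A Cre effect on Igf1 among VIP libraries alone was not tested.

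Light changed 27 differences (0.173%), 14 upward and 13 downward after light. The count was 43 with the length index as a covariate and 26 without the 4 dark dCre pairs of high length index. Hunk, a protein kinase, had a mean pair difference of -0.30 in the dark (means of 31.4 CPM in VIP and 38 CPM in total) and of 1.41 after 1 h of light (82.3 and 31.9 CPM), a change of 1.77 ± 0.22 (SE; edgeR, adjusted p = 1.55e-06). Zbtb16 moved from 2.31 to 1.44, a change of -0.88 ± 0.14 (edgeR, adjusted p = 0.000545). Its mean level was 778 CPM in the dark and 740 CPM after light in VIP libraries, and 162 and 272 CPM in total libraries. The family members among the 27 were Zbtb16, the progesterone receptor Pgr and the sidekick protein Sdk2. The remaining 24 genes were outside the listed families.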

How the data were processed

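RNA of sorted nuclei from adult mouse visual cortex was measured in 96 libraries. Per the labels' protocols, 50 to 100 nuclei were sorted into lysis buffer, reverse transcribed from oligo-dT, amplified for 17 cycles and made into libraries with Nextera XT, with ERCC spike-ins; this chemistry does not mark strand. The submitters' processing notes name cutadapt 1.18, STAR 2.5.3a, HOMER 4.9.1 and the mm10 build; their roles, the annotation and the counting settings are not given in the sources used here. The deposited values are whole-number counts per Ensembl gene, not normalized. Of 55335 gene IDs 55154 matched GENCODE M21 (GRCm38), and the 181 others, with 0.0225% of counts, were left out of the tests. Of 148 within-group pairs of libraries 0 were identical.

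Counts were tested in R 4.3.3 with edgeR 4.0.16 (filterByExpr by fraction, trimmed mean of M-values, glmQLFit and glmQLFTest, Benjamini-Hochberg adjustment), with the pair and the fraction as terms. Pairs share line, virus, light and replicate number. Standard errors are the size of the log2 difference divided by the square root of F. A second fit let the fraction term vary with line, virus and light. The biological coefficient of variation was 0.567, and intervals and totals reflect counting of amplified reads without molecular identifiers. On simulated data with 15632 genes of this comparison, 37 of 50 genes raised by a log2 of 1 and 45 of 50 raised by a log2 of 2 passed the adjusted p of 0.05, 29 of 50 and 46 of 50 lowered ones did, and 5 of 15432 unchanged genes did. With the fold of at least 2 as well, 21 and 45 of the raised, 17 and 46 of the lowered and 1 of the unchanged genes were called. DESeq2 1.42.0, other scalings, filters, covariates and subsets were alternatives. Tables and plots used Python 3.11.15 with pandas 2.3.3 and matplotlib 3.10.9.

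The members, the 37 families and the 11 marker lists were chosen with earlier results of these data known. The genes named were the 4 markers and Igf1, the marker lists, up to 4 called genes per family and direction with the largest fold among those with at least 5 CPM in the higher fraction and the same direction in at least 40 of 48 pairs, up to 15 protein-coding genes per direction over all genes by p under the same conditions, and up to 5 per interaction term; other members are named where a family is described. Promoters came from RefSeq (GRCm38.p6). Some genes that met these rules are not reported here, in the text or in the plots, and stay in all counts.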

Additional observations from a re-analysis of the deposited data

Results flagged for a closer look

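Among 50 groups of 4 or 5 pairs examined for the 4 markers and Igf1, 4 held a pair far from the others, and chance alone gives about 1 in 20. All 4 are differences in log2(CPM + 1). Vip in E23 Cre light replicate 1 had a difference of 12.2, with 4573 CPM in the VIP and 0 CPM in the total library, while the other pairs of the group ran from 6.44 to 7.25. Crh in E123 dCre light replicate 3 had 5.45 (72.3 against 0.673 CPM; others 3.16 to 3.50), and Crh in E23 Cre dark replicate 3 had 8.0 (440.7 against 0.727 CPM; others 6.34 to 6.52). Slc17a7 in E23 Cre light replicate 2 had -4.84 (1.87 against 81.1 CPM; others -2.83 to -2.52). In the first 2 the total library held less of the peptide gene than the other totals of its group. In the last the VIP library held little Slc17a7. For Crh in E23 Cre dark the total of replicate 1 was lower still, at 0.543 CPM. Replicate 3 had the highest VIP level there, against 124 to 325 CPM in the other VIP libraries of the group.

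The difference between VIP and total nuclei varied by mouse line most clearly, by p, in Kalrn, Phactr1 and Celf2 (edgeR, adjusted p = 0.00089 each), Cap2 (0.0011) and Ntm (0.00144). It varied by light in Hunk (edgeR, adjusted p = 1.55e-06), Zbtb16 and Maml3 (0.000545 each), Nmnat2 (0.000551) and Dmxl1 (0.000939). After light the difference was higher in Hunk and in Dmxl1 (0.46 in the dark and 1.17 after light), and lower in Zbtb16, Maml3 (1.41 and 0.50) and Nmnat2 (0.62 and -0.11). Dmxl1 had means of 150 CPM in the dark and 235 CPM after light in VIP, and 106 CPM in both in total libraries. Maml3 had 278 and 309 CPM in VIP against 101 and 218 CPM in total libraries. Nmnat2 had 228 and 245 CPM in VIP against 148 and 268 CPM in total libraries.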

How the results depend on the processing

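Of 264 genes called and named by rule, 0 reversed direction in any alternative, but some lost their call in subsets. In E123 alone 65 of the 257 with a value did, among them Rorb, Fezf2, Bcl11b, Cux2, Lamp5, Oprd1, Gria3, Zeb2 and Cntnap2. In dCre mice alone 18 of 257 lost it, and in E23 alone 11 of 253. Leaving out each pair in turn gave 1010 to 1048 genes higher and 1771 to 1823 lower (transcription factors 26 to 28 and 46 to 48, receptors 32 to 32 and 44 to 47, channels 24 to 27 and 30 to 32, adhesion 35 to 37 and 43 to 46, neuropeptides and GABA 25 to 26 and 21 to 24); Klf3, Syt7 and Trpc6 lost their call in at least 1 of these 48 fits, which reuse the trended dispersion of the full fit. Scaling by total counts shifted the median of all genes by -0.14 and is to be read against that shift.

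With the adjusted p alone 3059 genes were higher and 4052 lower (transcription factors 53 and 74, channels 60 and 63, adhesion 98 and 79, neuropeptides and GABA 40 and 44), and with a fold of at least 4 the counts were 442 and 782 (17 and 21, 12 and 15, 13 and 21, 15 and 12; receptors 20 and 27). With no filter 4072 genes were lower (transcription factors 78, receptors 73, neuropeptides and GABA 35). In E123 alone 735 were lower (transcription factors 23, receptors 18, channels 11, adhesion 22, neuropeptides and GABA 12, excitatory markers 9), and in E23 alone 5 microglia markers. With the length index as a covariate 43 genes varied with light. The causes were not tested, beyond the wider or stricter rule, the larger number of genes or the fewer pairs in each case.

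The labels do not state that both fractions of a pair came from 1 animal. Same-numbered libraries deviated together with a median correlation of 0.083 (-0.0586 to 0.442), above 0.1 in 21 of 48 pairs, against -0.0209 for other numbers, and 32 of 48 VIP libraries correlated best with their own number. Without the replicate block 1014 genes were higher, 978 of them shared with the paired fit, and 1 gene varied with virus.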

Other observations

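Outside the listed families, protein-coding genes with the smallest p among those higher in VIP nuclei included Sorcs1, a sorting receptor, which ran from 856 to 3016 CPM (median 1476) in VIP and from 101 to 399 CPM (median 226) in total libraries (2.78 ± 0.07; edgeR, adjusted p = 6.26e-39). Dner, a transmembrane Notch ligand, ran from 406 to 1239 CPM (median 809) in VIP and from 62.9 to 184 CPM (median 120.4) in total libraries (2.64 ± 0.07; edgeR, adjusted p = 3.05e-38). Neither overlapped between fractions, and both were higher in 48 of 48 pairs. Synpr, the synaptic vesicle protein synaptoporin (3.34 ± 0.10), Slc44a5, a choline transporter-like protein (4.04 ± 0.12), Galnt14, a glycosyltransferase (2.47 ± 0.08), Shisa9, an AMPA receptor partner (2.51 ± 0.09), and Cit, citron kinase (1.97 ± 0.07), were also without overlap. Sorcs2 (2.80 ± 0.09), Sntg1 (1.82 ± 0.06), Slc35f4 (1.85 ± 0.06) and Fxyd6, a modulator of the sodium pump (2.68 ± 0.09), were higher in 48 of 48 pairs with some overlap. Adarb2, an RNA-editing enzyme relative used as a marker of caudal ganglionic eminence interneurons, ran from 7560.4 to 42319 CPM (median 16784) in VIP and from 3.01 to 1554 CPM (median 231) in total libraries (6.23 ± 0.24; edgeR, adjusted p = 2.29e-27).

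Among genes lower in VIP nuclei, those with the smallest p had smaller folds. Nell2, a secreted neuronal glycoprotein, ran from 179 to 513 CPM (median 278) in VIP and from 389 to 876 CPM (median 663) in total libraries (-1.15 ± 0.06; edgeR, adjusted p = 8.22e-25). Atp2b1, a plasma membrane calcium pump, ran from 114 to 567 CPM (median 289) in VIP and from 456 to 1040.5 CPM (median 779.7) in total libraries (-1.46 ± 0.08; edgeR, adjusted p = 1.86e-23). Ppp3ca, the catalytic subunit of calcineurin (-1.07 ± 0.06), Slc24a2, a sodium-calcium exchanger (-1.14 ± 0.06), Sh3gl2, an endophilin (-1.28 ± 0.07), Ptk2, focal adhesion kinase (-1.02 ± 0.06), Dock4 (-1.10 ± 0.06) and the transcription factor Rfx3 (-1.36 ± 0.07) were lower in 48 of 48 pairs. In each of these 8 genes the ranges of the fractions overlapped. Nell2, Ppp3ca, Slc24a2, Sh3gl2, Ptk2 and Dock4 lost their call in E123 alone. Slc24a2 and Ptk2 also lost it in dCre mice alone, and Ppp3ca in light mice alone.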
